A study of Mus musculus with 9 samples.

Results

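The genes of triglyceride synthesis were examined in the livers of 9 male C57BL/6J mice, an inbred strain that becomes obese on a fat-rich diet. The set held 10 of the 23183 gene symbols in the expression tables (Gpam, Agpat1, Agpat2, Agpat3, Lpin1, Lpin2, Dgat1, Dgat2, Mogat1 and Pnpla3). The 10 were chosen by name from the known pathway, with earlier results of these data known. Genes were kept where the value was above 0 in at least 1 liver, which all 10 met. Of these, 8 had a mean of at least 1 FPKM (a fragment count divided by transcript length and by the size of the library) in each of the 3 groups, Mogat1 reached it in the HFD group only, and Pnpla3 in no group. The ND mice (numbers 6, 7 and 9) ate a normal diet with 14% fat for 10 weeks. The HFD mice (1, 2 and 3) ate a diet with 60% fat for the same 10 weeks. The PRF 50 mice (3, 9 and 10) ate the 60% fat diet for 10 weeks and were given PRF, an extract fraction of citrus leaves rich in polymethoxyflavones, by mouth at 50 mg/kg of body weight per day during the last 5 weeks. All mice were sampled at 100 days of age after a fast of 8 h, and 1 poly(A)-selected RNA library was sequenced per liver. A number identifies a mouse in its own group and links no mice across groups.

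Triglyceride is built in the liver by adding fatty acyl chains to glycerol 3-phosphate in turn. Glycerol 3-phosphate acyltransferases make lysophosphatidate, the AGPAT enzymes turn it into phosphatidate, lipins remove the phosphate to give diacylglycerol, and the DGAT enzymes add the last acyl chain, while monoacylglycerol acyltransferases reach diacylglycerol by a side route. The product is stored in lipid droplets or exported in very-low-density lipoprotein, and excess storage is the hallmark of fatty liver.

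Values are given as log2(FPKM + 1), the scale of the deposited tables, on which differences of genes near 0 are understated. The depth of the libraries is not known in absolute terms. Relative to HFD mouse 1, estimated depths lay between 0.963 in PRF 50 mouse 10 and 1.60 in HFD mouse 3, and low levels, such as those of Mogat1 and Pnpla3, are the most affected by depth. Across the 10048 genes that averaged 1 FPKM or more over the 9 mice, Pearson's r between mice of a group was between 0.975 and 0.986; it is taken across genes, which are not independent replicates. HFD mouse 1 stood apart from HFD mice 2 and 3 in several members and in cell type markers. The summed level of 8 endothelial markers was 16.8 FPKM in HFD mouse 1, 41.9 in HFD mouse 2 and 57.1 in HFD mouse 3, and lay between 42.5 and 74.7 FPKM in the other 6 mice.

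Dgat2 was the most abundant member, with 265 FPKM ± 46.1 (SD, n = 3) in ND, 302 ± 52.6 in HFD and 245 ± 11.1 in PRF 50 livers. Agpat2 came next with 98.2 ± 3.69, 137 ± 26.2 and 87.4 ± 6.95 FPKM. Agpat3 and Lpin2 followed, with means from 48.7 to 62.9 FPKM and from 36.5 to 52.7 FPKM, and their values overlapped in ND and HFD mice but not in PRF 50 mice. Gpam and Lpin1 had means from 23.2 to 37.6 FPKM and from 15.3 to 25.8 FPKM and overlapped in every group. Dgat1 had means from 8.47 to 12.7 FPKM and Agpat1 from 2.70 to 3.49 FPKM. Mogat1 had a mean of 4.04 FPKM in HFD livers and overlapped there with Agpat1, against 0.602 FPKM in ND and 0.468 FPKM in PRF 50 livers. Pnpla3 was lowest, with group means from 0.0372 to 0.215 FPKM.

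**Figure D1:**
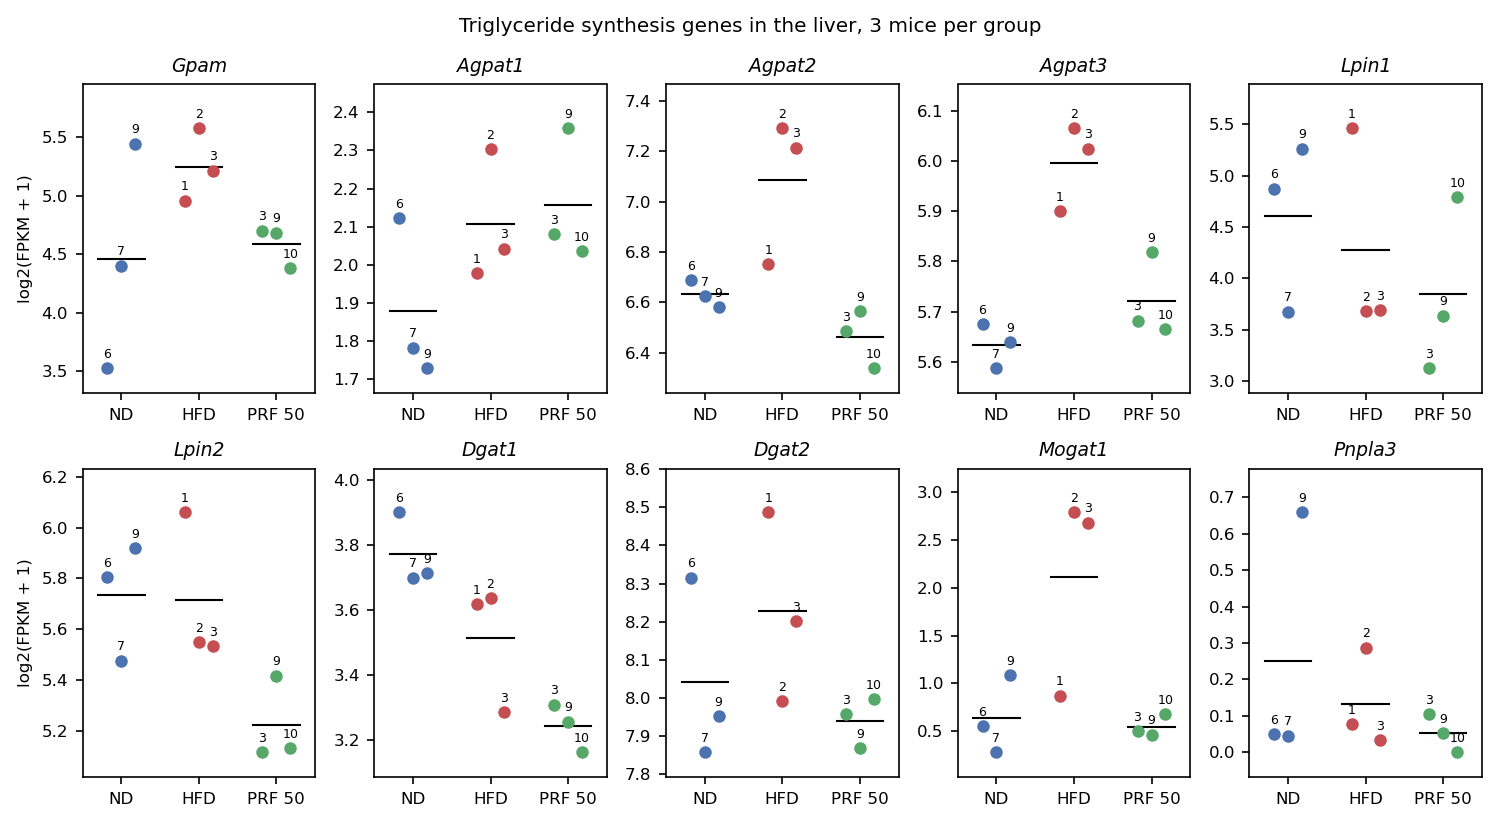
Level of each of the 10 genes in each liver, as log2(FPKM + 1) on the vertical axis, by group; each point is 1 mouse with its number, and the line is the group mean. Gpam, Agpat2, Agpat3, Lpin2 and Mogat1 are lower in all 3 PRF 50 mice than in any HFD mouse, and HFD mouse 1 has the lowest HFD value of Agpat2 and Mogat1 and the highest of Lpin1.

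PRF 50 vs. HFD set livers with and without the extract side by side under the same diet. Most members of the set were lower in the PRF 50 livers, by modest amounts that did not pass correction over all genes. The members were chosen with earlier results of these data known, so shares over all genes stand beside their counts as description only. Of the 8 members with at least 1 FPKM in each group, 7 had a lower mean in PRF 50, beside 53.0% of all 10084 genes tested, and their median log2 fold change was -0.36, beside -0.02 over all genes. Gpam, Agpat2, Agpat3, Lpin2 and Dgat1 had an unadjusted p under 0.05 in limma, a linear model fitted gene by gene with a shared estimate of the spread, and were lower, 5 of these 8, where 11.8% of all genes tested met this rule, and no member was higher at that threshold, where 8.47% of all genes were. The values of 4 of the 8 did not overlap between the groups, a pattern found in 26.2% of all genes. No member had an adjusted p (corrected for the number of genes tested by Benjamini-Hochberg) under 0.05 in the limma fit, which 3.59% of all genes (362) reached. Mogat1 was the 6th member with an unadjusted p under 0.05 and the 5th without overlap, but it passed the minimum level only through the HFD group and is therefore not counted with the 8. The count of members with an unadjusted p under 0.05, 6 with Mogat1, was 3 without PRF 50 mouse 3 and 3 without PRF 50 mouse 10, each time Gpam, Agpat2 and Mogat1. The count of 362 genes was 215 without HFD mouse 1, 31 without HFD mouse 2, 15 without HFD mouse 3, 40 without PRF 50 mouse 3 and 168 without PRF 50 mouse 10. In whole liver, fewer cells of a type and less RNA per cell cannot be told apart.

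The PRF 50 values of Gpam, Agpat2, Agpat3, Lpin2 and Mogat1 all lay under the HFD values, and promoter windows are shown for those of the 5 that held a searched motif. Each window runs from 250 bases before to 50 bases after a RefSeq transcript start (GRCm38.p6), is read 5′ to 3′ on the gene's strand, and is the most upstream window of its gene. Capitals mark matches on either strand to any of 5 short motifs. These were the E-box CACGTG, the CCAAT box, the GC box GGGCGG, the TATA box TATAAA and the nuclear receptor motif AGGTCA.
Gpam, chr19:55127189-55127488, minus strand: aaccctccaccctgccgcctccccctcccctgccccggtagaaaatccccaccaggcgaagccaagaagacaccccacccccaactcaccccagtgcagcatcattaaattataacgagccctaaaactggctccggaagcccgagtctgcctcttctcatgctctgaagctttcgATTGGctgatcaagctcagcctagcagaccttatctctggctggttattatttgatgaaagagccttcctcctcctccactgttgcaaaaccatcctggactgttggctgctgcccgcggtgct
Agpat2, chr2:26604368-26604667, minus strand: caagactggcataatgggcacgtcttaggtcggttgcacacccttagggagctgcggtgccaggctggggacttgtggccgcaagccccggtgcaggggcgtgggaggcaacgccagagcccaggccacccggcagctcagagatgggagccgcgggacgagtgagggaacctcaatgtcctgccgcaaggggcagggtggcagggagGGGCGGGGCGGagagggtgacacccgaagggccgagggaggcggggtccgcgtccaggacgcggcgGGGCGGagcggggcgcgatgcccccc
Lpin2, chr17:71183282-71183581, plus strand: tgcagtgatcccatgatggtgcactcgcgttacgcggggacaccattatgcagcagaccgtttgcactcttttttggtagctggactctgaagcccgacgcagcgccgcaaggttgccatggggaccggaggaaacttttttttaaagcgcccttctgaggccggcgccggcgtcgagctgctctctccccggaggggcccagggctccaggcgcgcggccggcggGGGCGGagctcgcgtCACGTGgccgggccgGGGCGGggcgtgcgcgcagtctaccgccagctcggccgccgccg
Mogat1, chr1:78510810-78511109, plus strand: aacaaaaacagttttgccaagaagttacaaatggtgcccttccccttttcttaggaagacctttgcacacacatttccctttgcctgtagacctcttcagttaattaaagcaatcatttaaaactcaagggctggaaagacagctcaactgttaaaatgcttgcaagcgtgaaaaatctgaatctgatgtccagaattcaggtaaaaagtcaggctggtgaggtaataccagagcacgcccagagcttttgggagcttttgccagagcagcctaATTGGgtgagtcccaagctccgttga
No motif was in all of these windows. Those of Gpam and Mogat1 each held 1 CCAAT box, on the opposite strand, with its first base at -74 from the start in Gpam and at 25 in Mogat1. The Agpat2 window held 3 GC boxes, at -42, -37 and 25, and those at -42 and -37 overlap by 1 base. The Lpin2 window held an E-box at -9 and GC boxes at -24 and 7. The most upstream Agpat3 window (chr10:78351651-78351950, minus strand) held none of the motifs. Among all 32851 promoter windows of this length, 7.15% held the E-box, 37.4% the CCAAT box, 35.7% the GC box, 13.6% the TATA box and 16.3% the nuclear receptor motif. Windows were found for 8 of the 10 members, 12 windows in all. Of these 12 windows, 1 held the E-box, 5 the CCAAT box, 7 the GC box, 3 the nuclear receptor motif (in Gpam, Agpat1 and Lpin1) and 0 the TATA box. A match describes these letters only.

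Gpam encodes the mitochondrial glycerol 3-phosphate acyltransferase that starts the pathway (chr19:55067268-55127238, minus strand, GENCODE M21 on GRCm38). Its log2 level was 4.70, 4.68 and 4.38 in PRF 50 mice 3, 9 and 10, against 4.96, 5.58 and 5.21 in HFD mice 1, 2 and 3. All PRF 50 values lay under all HFD values. The log2 fold change was -0.66 ± 0.17 (SE), a ratio of 0.632, with a limma p of 0.00525 and an adjusted p of 0.0844 (0.0571 to 0.422 over the alternatives). With all 9 mice in 1 limma fit, which takes in the wide ND spread, the unadjusted p was 0.120. In ND mice 6, 7 and 9 the log2 level was 3.53, 4.40 and 5.44. The ND livers spread more widely than the other groups and enclosed every PRF 50 value, and ND mouse 9 lay above HFD mice 1 and 3. Gpam was higher in HFD than in ND by a mean log2 difference of 0.79 ± 0.42 (SE), with a limma p of 0.0980 and an adjusted p of 0.440 (0.0996 to 0.737 over the alternatives). This difference depended on single ND mice, as it was 0.33 without ND mouse 6 and 1.29 without ND mouse 9, where the limma p was 0.00242. The interval of PRF 50 vs. ND ran from -0.83 to 1.09 on the log2 scale, and the difference of 0.13 became -0.33 without ND mouse 6 and 0.63 without ND mouse 9.

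Agpat2, the acyltransferase whose loss causes congenital lipodystrophy, made up most of the AGPAT transcript (chr2:26593057-26604417, minus strand). Its log2 level was 6.49, 6.56 and 6.34 in the PRF 50 mice, 6.75, 7.29 and 7.21 in the HFD mice and 6.69, 6.63 and 6.58 in the ND mice, each in the order of their numbers. The 3 groups did not overlap, with HFD highest, ND between and PRF 50 lowest. The step between ND and PRF 50 passed no threshold, with a log2 fold change of -0.17, a limma p of 0.162 and an adjusted p of 0.547 (0.499 to 0.969 over the alternatives), and it was -0.01 after quantile normalization. PRF 50 vs. HFD gave a log2 fold change of -0.62 ± 0.15 (SE) with an adjusted limma p of 0.0787. HFD mouse 1 lay just above the ND mice, and without it the fold change was -0.79 with an adjusted p of 0.0256. With all 9 mice in 1 fit the adjusted p was 0.0457, and over all alternatives it lay between 0.0256 and 0.219. HFD vs. ND gave a log2 fold change of 0.45 ± 0.15 (SE), with a p of 0.0191 and an adjusted limma p of 0.232.

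Agpat3, a family member that also acts on other lysophospholipids (chr10:78269178-78352489, minus strand), showed the same order of HFD above the rest with smaller steps. The log2 level was 5.68, 5.82 and 5.67 in PRF 50, 5.90, 6.07 and 6.03 in HFD and 5.68, 5.59 and 5.64 in ND mice. HFD mice were above all mice of the other groups, while ND and PRF 50 mice overlapped. The log2 fold change was -0.28 ± 0.09 (SE) in PRF 50 vs. HFD, with a p of 0.0169 and an adjusted limma p of 0.146 (0.116 to 0.439 over the alternatives). It was -0.17 after quantile normalization, and its unadjusted p was under 0.05 in 8 of 13 alternatives. HFD vs. ND gave 0.36 ± 0.10 (SE), with a p of 0.00626 and an adjusted limma p of 0.148 (0.0934 to 0.456 over the alternatives). Agpat1 (chr17:34604262-34613449, plus strand) lay between 1.73 and 2.36 on the log2 scale in all 9 mice. Its PRF 50 vs. HFD difference was 0.05, with a 95% interval from -0.26 to 0.36, and its sign turned without HFD mouse 1 (-0.01) or without PRF 50 mouse 9 (-0.05).

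The lipins differed in how they varied. Lpin1, a phosphatidate phosphatase that also acts as a transcriptional coactivator and responds to fasting and glucocorticoids (chr12:16535669-16610966, minus strand), varied within every group. Its log2 level was 4.87, 3.67 and 5.26 in ND mice 6, 7 and 9, 5.46, 3.68 and 3.69 in HFD mice 1, 2 and 3, and 3.13, 3.64 and 4.79 in PRF 50 mice 3, 9 and 10. Each group held a mouse or a pair of mice more than 1 log2 unit above the rest, so that HFD mouse 1, ND mice 6 and 9 and PRF 50 mouse 10 were high and the other 5 mice low. No comparison had a p under 0.05, and the 95% interval of PRF 50 vs. HFD ran from -1.77 to 0.92. Its difference of -0.43 became 0.17 without HFD mouse 1, and that of HFD vs. ND, -0.33, became 0.00331 without ND mouse 9. The largest Lpin1 difference, -0.75 in PRF 50 vs. ND, kept its sign in all 13 alternatives (-1.22 to -0.39), with a limma p under 0.05 in 2, without ND mouse 7 and without PRF 50 mouse 10.

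Lpin2, the lipin with the higher level in liver (chr17:71182560-71249817, plus strand), was lower in PRF 50 mice than in any other mouse. The log2 level was 5.12, 5.42 and 5.13 in PRF 50, 6.06, 5.55 and 5.53 in HFD and 5.80, 5.48 and 5.92 in ND mice. HFD and ND values overlapped, and PRF 50 mouse 9 was close under the lowest of them, ND mouse 7. HFD vs. ND gave -0.02, and -0.19 without HFD mouse 1, 0.06 without HFD mouse 2, 0.07 without HFD mouse 3, 0.02 without ND mouse 6 and 0.07 without ND mouse 9. The log2 fold change was -0.49 ± 0.16 (SE) in PRF 50 vs. HFD, with a p of 0.0187 and an adjusted limma p of 0.153 (0.121 to 0.323 over the alternatives), and -0.51 ± 0.15 (SE) in PRF 50 vs. ND, with a p of 0.00939 and an adjusted limma p of 0.213. Without HFD mouse 1, the highest of the 9 mice, the PRF 50 vs. HFD difference was -0.32.

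The last step is catalysed by DGAT1 and DGAT2, enzymes of unrelated sequence. Dgat1 (chr15:76502015-76511953, minus strand) had a log2 level of 3.90, 3.70 and 3.71 in ND, 3.62, 3.64 and 3.29 in HFD and 3.31, 3.26 and 3.16 in PRF 50 mice. All ND mice were above all mice on the 60% fat diet, and HFD mouse 3 lay among the PRF 50 mice. PRF 50 vs. ND gave a log2 fold change of -0.53 ± 0.10 (SE), a ratio of 0.693, with a p of 0.00103, the smallest of any member in any comparison, and an adjusted limma p of 0.0913. HFD vs. ND gave -0.26 ± 0.13 (SE) with a p of 0.0754 and an adjusted limma p of 0.398 (0.315 to 0.792 over the alternatives), and -0.14 without HFD mouse 3. PRF 50 vs. HFD gave -0.27 ± 0.11 (SE) with a p of 0.0489 and an adjusted limma p of 0.244, and its unadjusted p was under 0.05 in 3 of 12 alternatives.

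Dgat2 (chr7:99153658-99182719, minus strand) had a level of 318, 231 and 247 FPKM in ND, 358, 254 and 293 FPKM in HFD and 248, 233 and 254 FPKM in PRF 50 mice. The groups overlapped, and ND mouse 6 and HFD mouse 1 had the highest values. The log2 fold change of PRF 50 vs. HFD was -0.29 ± 0.14 (SE) with a 95% interval from -0.61 to 0.04, a p of 0.0771 and an adjusted limma p of 0.309 (0.244 to 0.494 over the alternatives). It was -0.16 without HFD mouse 1 and -0.40 without HFD mouse 2. That of PRF 50 vs. ND was -0.10, and it was 0.00102 after quantile normalization and 0.04 without ND mouse 6.

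Mogat1, a monoacylglycerol acyltransferase found at raised levels in mouse fatty liver (chr1:78510991-78538173, plus strand), had the largest fold change of the set in PRF 50 vs. HFD and HFD vs. ND, and the lowest level of the members tested there in ND and PRF 50 livers, though not in HFD livers. Its level was 0.830, 5.90 and 5.39 FPKM in HFD mice 1, 2 and 3, against 0.419, 0.381 and 0.603 FPKM in PRF 50 mice 3, 9 and 10 and 0.468, 0.217 and 1.12 FPKM in ND mice 6, 7 and 9. HFD mice 2 and 3 were high, while HFD mouse 1 lay within the range of the ND mice. The log2 fold change of PRF 50 vs. HFD was -1.56 ± 0.47 (SE), with a p of 0.0119 and an adjusted limma p of 0.122. Without HFD mouse 1 it was -2.18 with an adjusted p of 0.00157, the lowest of the alternatives, whose highest was 0.301. With a pseudocount of 0.1 the log2 fold changes were larger, -2.48 in this comparison and 2.37 in HFD vs. ND. HFD vs. ND gave 1.47 ± 0.48 (SE) with a p of 0.0159 and an adjusted limma p of 0.218, and 2.09 with an adjusted p of 0.0121 without HFD mouse 1, where the highest of the alternatives was 0.533. Because Mogat1 passed the minimum level through these HFD livers, its difference is in part a condition of its being tested. On the opposite strand, 12.8% of its exon bases are shared with the gene BC035947. The libraries were made with a directional kit, but the use of the strand in the FPKM values is not stated. Agpat1, Agpat2 and Agpat3 share 3.37%, 3% and 0.205% of their exon bases with genes on the opposite strand. Pnpla3 shares 6.78% with Gm49513 on its own strand.

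Pnpla3, which encodes a droplet-bound lipase and acyltransferase whose human variant is tied to fatty liver (chr15:84167837-84187236, plus strand), was under the minimum level in all 3 comparisons and was not tested. Its level was 0.0348, 0.0321 and 0.579 FPKM in ND mice 6, 7 and 9, 0.0552, 0.220 and 0.0231 FPKM in HFD mice 1, 2 and 3, and 0.0752 and 0.0365 FPKM in PRF 50 mice 3 and 9, and it was listed at 0 in PRF 50 mouse 10. ND mouse 9 had the highest value, and it also had the highest Gpam level of the ND group.

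**Figure D2:**
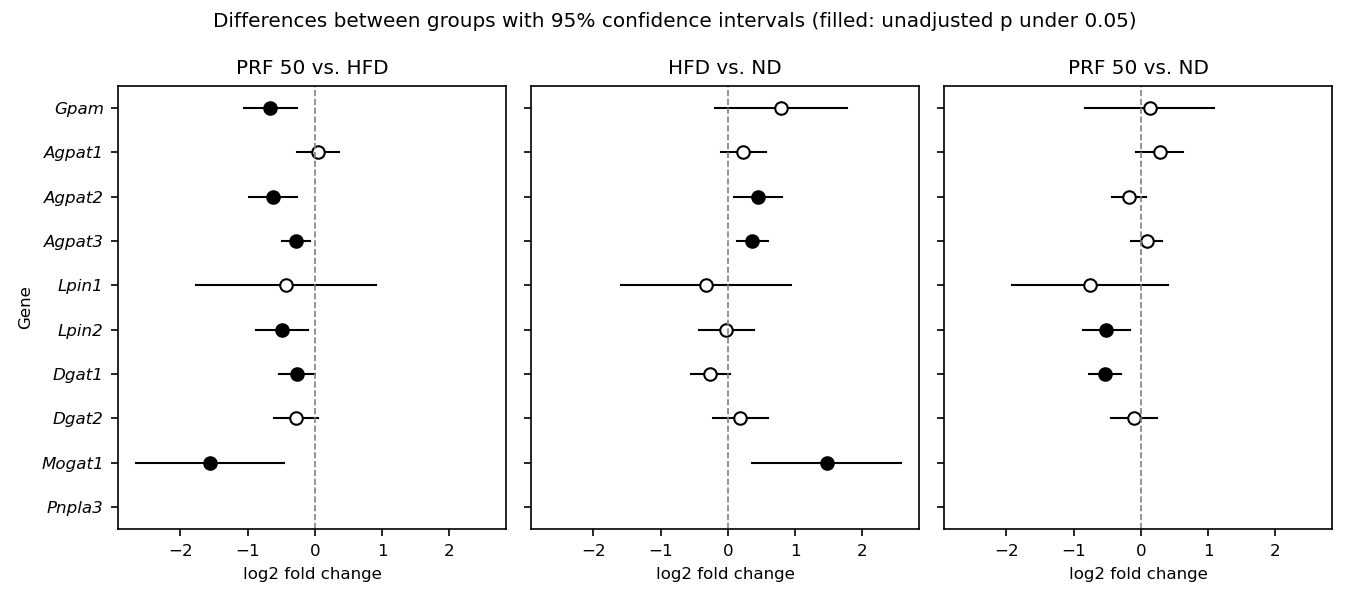
Log2 fold change of each tested member in the 3 comparisons (horizontal axis), with points for the estimate and lines for the 95% confidence interval from limma; filled points have an unadjusted p under 0.05. In PRF 50 vs. HFD, 5 of the 8 members with at least 1 FPKM in each group have filled points under 0, from -0.27 for Dgat1 to -0.66 for Gpam, beside 11.8% of all genes, and Mogat1 (-1.56) was tested through the HFD group.

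HFD vs. ND set the 60% fat diet against the 14% fat diet. Agpat2 and Agpat3 were higher in HFD at the unadjusted threshold, and no member passed correction. Among the 8 members with at least 1 FPKM in each group, 2 (Agpat2 and Agpat3) had an unadjusted p under 0.05 and were higher, beside 7.82% of 9978 genes tested, and none was lower, beside 7.26%. Of the 8, 3 did not overlap between the groups (Agpat2 and Agpat3 higher, Dgat1 lower), beside 20.7% of all genes. A lower mean in HFD was found for 3 of the 8, beside 51.7% of all genes, and their median log2 fold change was 0.21, and -0.01 over all genes. An adjusted limma p under 0.05 was reached by 1.33% of all genes (133). With Mogat1, which passed the minimum level only through the HFD group, the count at an unadjusted p under 0.05 was 3, and it was 1 without HFD mouse 2, without HFD mouse 3 or without ND mouse 7, each time Agpat3. The count of 133 genes was 41 without HFD mouse 2, 35 without HFD mouse 3, 63 without ND mouse 6 and 39 without ND mouse 7.

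PRF 50 vs. ND set the treated livers against those of the normal diet. Lpin2 and Dgat1 were lower in PRF 50 with an unadjusted p under 0.05, 2 of the 8 members tested, beside 6.44% of 10051 genes, and none was higher, beside 6.06%. Of the 8, 3 did not overlap (Agpat2, Lpin2 and Dgat1, all lower in PRF 50), beside 19.9% of all genes. No member had an adjusted limma p under 0.05, which 0.458% of all genes (46) had. A lower mean in PRF 50 was found for 5 of the 8, beside 56.6% of all genes. The median log2 fold change of the 8 was -0.14, and -0.03 over all genes. It was -0.01 after quantile normalization, beside -0.02 over all genes, and -0.24 without ND mouse 6. The count of 46 genes was 17 without ND mouse 6, 4 without ND mouse 7, 8 without PRF 50 mouse 3, 26 without PRF 50 mouse 9 and 71 without PRF 50 mouse 10, and 102 with all 9 mice in 1 fit. Each pair of comparisons shares a group of mice, so the 3 sets of values are given side by side and are not independent.

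Because FPKM is scaled by transcript length, the isoforms of a step can be set against each other within a liver. The AGPAT sum was taken over the 3 members only. It left out Lclat1 (group means from 11.2 to 13.2 FPKM) and Agpat5 (from 2.64 to 2.69 FPKM). Agpat2 made up 63.4% to 69.0% of the summed Agpat1, Agpat2 and Agpat3 level in HFD mice, 65.0% to 66.4% in ND mice and 60.2% to 62.3% in PRF 50 mice. Its share was lower in all 3 PRF 50 mice than in the other 6, by a mean of 5.81 percentage points against HFD and 4.44 against ND, each with a two-sided exact permutation p of 0.1, the smallest that 3 against 3 mice allow. Agpat3 filled most of the difference, with 36.3% ± 1.05 (SD, n = 3) in PRF 50, 31.3% ± 3.08 in HFD and 32.5% ± 0.799 in ND. The summed level of the 3 genes was 203 FPKM ± 30.4 in HFD, 150 ± 5.23 in ND and 143 ± 10.2 in PRF 50.

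The lipin sum was taken over Lpin1 and Lpin2, without Lpin3, which lay between 0.874 and 1.49 FPKM. The Lpin1 share of this sum was 18.7% to 43.9% in PRF 50 mice, 20.5% to 39.6% in HFD mice and 21.3% to 38.5% in ND mice. These ranges nearly coincide, and the exact permutation p was between 0.8 and 0.9 in the 3 comparisons. The difference of PRF 50 vs. HFD, 1.07 percentage points, was 7.37 without HFD mouse 1 and -6.87 without PRF 50 mouse 10. That of PRF 50 vs. ND, -3.25, was 1.44 without PRF 50 mouse 3 and -11.2 without PRF 50 mouse 10, so neither has a settled sign. Dgat2 made up at least 95.1% of the DGAT level in each mouse. Its share was 95.4% ± 0.371 (SD, n = 3) in ND, 96.6% ± 0.776 in HFD and 96.6% ± 0.278 in PRF 50. The PRF 50 mice did not overlap with the ND mice (exact permutation p of 0.1), and the HFD mice overlapped with the PRF 50 mice. The PRF 50 vs. HFD difference, 0.0715 percentage points, was -0.374 without HFD mouse 2 and 0.334 without HFD mouse 3.

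**Figure D3:**
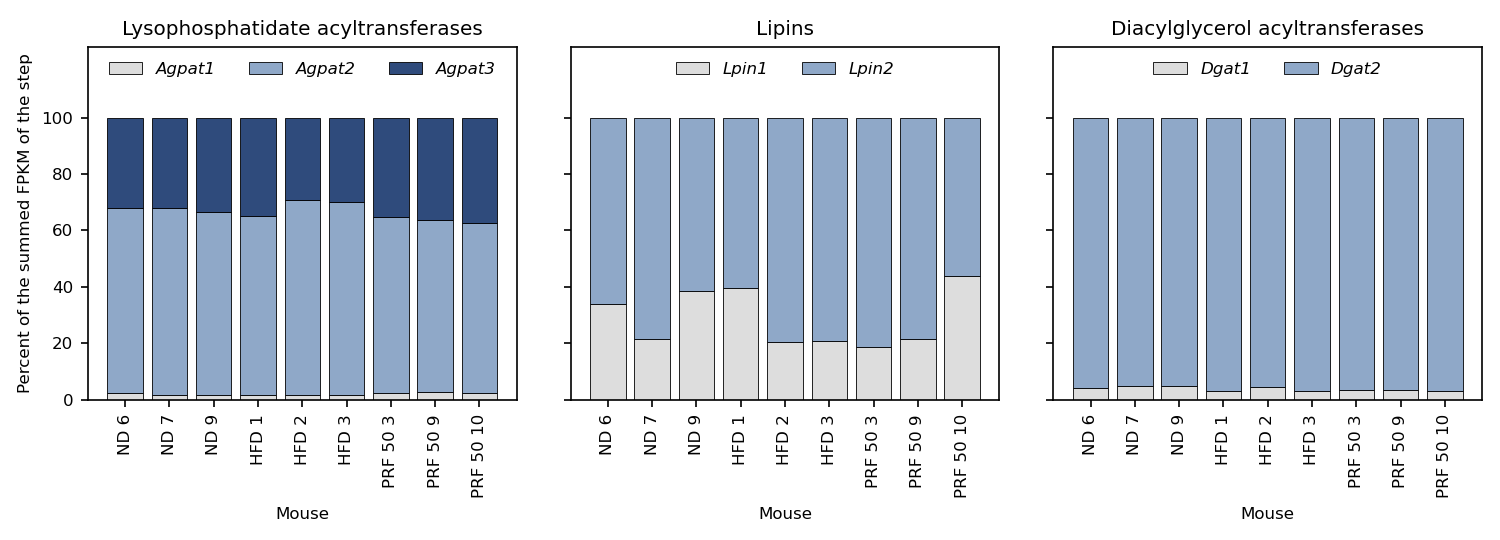
Percent of the summed FPKM of the members of a step (vertical axis) that each isoform took in each of the 9 livers (bars). The 3 panels are the AGPAT, lipin (Lpin1 and Lpin2) and DGAT steps. The Agpat2 part is shortest in the 3 PRF 50 mice (60.2% to 62.3%), the Lpin1 part varies from mouse to mouse within each group, and Dgat1 stays a thin part throughout.

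Since no member had an adjusted p under 0.05, the member with the smallest p, Dgat1, was taken for a search of similar patterns among the 10048 genes. The measure was the mean absolute difference of the log2 values after each gene was centred on its mean over the 9 mice. The nearest genes were Dbi (0.0636), which encodes the acyl-CoA binding protein, Gpi1 (0.0763), a glycolytic isomerase, and Nadsyn1 (0.0808), an enzyme of NAD synthesis. Dbi had a log2 level of 10.85, 10.52 and 10.69 in ND, 10.35, 10.55 and 10.14 in HFD and 10.28, 10.13 and 10.10 in PRF 50 mice. Since Dbi was picked for its likeness to Dgat1 over these mice, its order of the groups and its fold change are no second observation. PRF 50 vs. ND gave a log2 fold change of -0.52 for Dbi with an adjusted limma p of 0.222.

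For Mogat1 the nearest genes were Gpc1 (0.166), a cell-surface heparan sulfate proteoglycan, Pdk4 (0.238), the kinase that blocks pyruvate dehydrogenase in fasting, and Osbpl3 (0.255), a sterol-binding protein, named here after the values were seen. Pdk4 had a log2 level of 0.70, 2.33 and 2.29 in HFD mice 1, 2 and 3, 0.34, 0.57 and 0.97 in ND mice and 0.76, 0.77 and 0.50 in PRF 50 mice. Since Pdk4 was picked for its likeness to Mogat1, its high values in HFD mice 2 and 3 are no second observation. Cidec, a lipid droplet protein of adipocytes and fatty liver, was at 1.99, 3.74 and 3.79 in the HFD mice, 1.85, 1.42 and 1.90 in the ND mice and 0.08, 0.90 and 0.36 in the PRF 50 mice. Its log2 fold change in PRF 50 vs. HFD was -2.72, with an adjusted limma p of 0.0336. Cidec averaged 0.404 FPKM in PRF 50 and 9.38 FPKM in HFD livers and so was tested through the HFD group, as Mogat1 was, which makes its difference in part a condition of its being tested. Pparg, the nuclear receptor that drives adipocyte gene expression, was at 3.45, 3.83 and 3.83 in the HFD mice, between 3.56 and 3.58 in the ND mice and at 2.60, 2.67 and 2.08 in the PRF 50 mice. It fell by 1.25 in PRF 50 vs. HFD (adjusted limma p of 0.0229) and by 1.12 in PRF 50 vs. ND (adjusted limma p of 0.0416), while the PRF 50 values of Mogat1 lay within its ND range. The Cidec and Pparg calls against HFD were lost with no minimum level and without HFD mouse 2, HFD mouse 3 or PRF 50 mouse 3, and that of Cidec also without PRF 50 mouse 10, with adjusted p up to 0.106 for Cidec and 0.0804 for Pparg over the alternatives. The Pparg call against ND was lost with no minimum level and without any 1 of the mice but PRF 50 mouse 10 (adjusted p up to 0.157 over the alternatives).

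**Figure D4:**
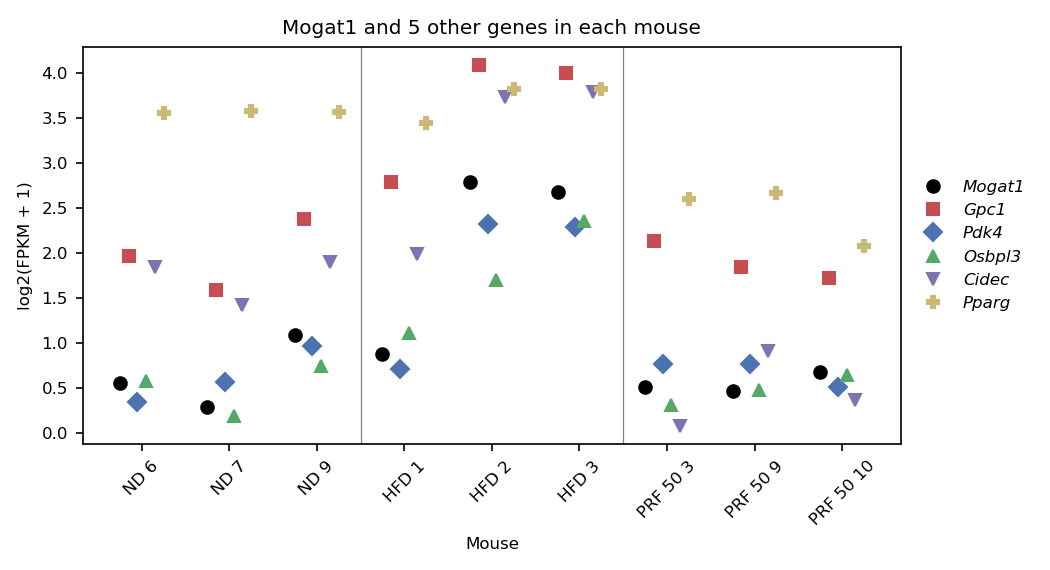
Log2(FPKM + 1) of Mogat1 and of Gpc1, Pdk4, Osbpl3, Cidec and Pparg (vertical axis) in each of the 9 livers (horizontal axis); each point is 1 mouse and vertical lines separate the groups. HFD mice 2 and 3 hold the highest values of all 6 genes, and in HFD mouse 1 Mogat1 (0.87) and Pdk4 (0.70) lie within the range of the ND mice.

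Genes around the pathway were described by lists of related function, with counts in PRF 50 vs. HFD first, where 11.8% of all genes tested were lower and 8.47% higher at the unadjusted threshold. The lists were chosen with earlier results of these data known, so their counts are no independent measure against all genes. Across these lists and the cell type markers, 17 of 118 genes tested had an adjusted limma p under 0.05 in this comparison, beside 3.59% of all genes. None of the 17 kept it without HFD mouse 2, without HFD mouse 3 or without PRF 50 mouse 3, while 12 did without HFD mouse 1 (lost for Acsl1, Xbp1, G6pc, Cd68 and C1qa), 12 without PRF 50 mouse 9 and 6 without PRF 50 mouse 10. With no minimum level, where more genes are tested, 4 kept it (Gyk, Chpt1, Xbp1 and Vsig4). Their direction held in all 216 alternatives, and 124 of these had an adjusted p under 0.05. Of 6 genes of glycerol 3-phosphate metabolism, 3 were lower with an unadjusted p under 0.05. Gpd2, the mitochondrial dehydrogenase that oxidises glycerol 3-phosphate, and Gyk, the glycerol kinase that makes it, fell by 0.88 and 0.74 (adjusted limma p of 0.0322 and 0.0147). Gyk was at 5.58, 5.55 and 5.45 in HFD mice, 4.56, 4.88 and 4.76 in ND mice and 4.78, 4.88 and 4.70 in PRF 50 mice. It rose by 0.79 in HFD vs. ND (adjusted limma p of 0.0228), a call lost with no minimum level and without HFD mouse 2, HFD mouse 3 or ND mouse 7 (adjusted p up to 0.0979 over the alternatives), and its ND and PRF 50 values overlapped. Of 7 genes of acyl-CoA supply, 3 were lower at the unadjusted threshold, beside 11.8% of all genes, and Acsl1, the main long-chain acyl-CoA synthetase of liver, fell by 1.11 (adjusted limma p of 0.0336), from 8.53, 8.36 and 8.77 in HFD mice to 7.04, 7.53 and 7.74 in PRF 50 mice. No test compared the lists with each other.

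Of 16 genes of the phospholipid branches, 5 were lower and 2 higher at the unadjusted threshold, beside 11.8% and 8.47% of all genes. Chpt1, which uses diacylglycerol to make phosphatidylcholine, fell by 0.85 (adjusted limma p of 0.0150), with 6.56, 6.63 and 6.49 in PRF 50 mice against 7.33, 7.32 and 7.59 in HFD mice and 7.27, 7.20 and 7.12 in ND mice. Chkb, a choline kinase, fell by 0.50 (adjusted limma p of 0.0387). Of 8 packaging genes, 4 were lower and none higher, and Fitm1, a membrane protein of droplet formation, fell by 1.18 (adjusted limma p of 0.0414). Its values were 4.67, 4.93 and 4.23 in PRF 50, 5.39, 5.87 and 6.13 in HFD and 5.79, 5.48 and 5.64 in ND mice.

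Of 6 other glycerolipid acyltransferases tested, 2 were lower at the unadjusted threshold, Agpat9 (the gene of GPAT3) by a log2 fold change of -0.92 and Lclat1 by -0.21, with adjusted limma p of 0.174 and 0.205. The Agpat9 difference was -0.51 without PRF 50 mouse 10. Agpat6 (the gene of GPAT4), named after its values were seen, averaged 35.8 FPKM in ND, 38.1 in HFD and 34.7 in PRF 50 livers. Each of these means was above that of Gpam in the same group. The Agpat6 log2 fold change in PRF 50 vs. HFD was -0.12 (limma p of 0.387, adjusted p of 0.663), and the 2 groups overlapped. None of the 5 other phosphatidate phosphatases passed the unadjusted threshold. The smallest limma p among these belonged to Ppapdc1b (-0.27, p of 0.0722), and Ppap2a followed with its HFD vs. ND difference (-0.49, p of 0.106), which was -0.20 without HFD mouse 1 and -0.75 without HFD mouse 3.

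Of 10 transcriptional regulators of lipogenesis, none was lower and 2 were higher at the unadjusted threshold in PRF 50 vs. HFD. Xbp1, a factor of the unfolded protein response and of lipogenesis, rose by 0.42 (adjusted limma p of 0.0373), with 6.52, 6.61 and 6.63 in PRF 50 mice and 6.17, 6.14 and 6.18 in HFD mice. Its ND values of 6.90, 6.46 and 6.75 overlapped those of PRF 50. Srebf1, the gene of the lipogenic factor SREBP-1, gave a log2 fold change of -0.13 ± 0.28 (SE), which was 0.09 without PRF 50 mouse 9, and was named after its values were seen. It was at 6.36, 5.22 and 5.40 in PRF 50 mice and at 5.83, 5.98 and 5.59 in HFD mice, so PRF 50 mouse 3 was above and the other 2 PRF 50 mice under the HFD range. In HFD vs. ND, 4 of the 10 regulators were lower at the unadjusted threshold, beside 7.26% of all genes, and none past correction.

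Of 11 fasting-response genes, 3 were lower at the unadjusted threshold. Of the 3, Pdk4 and Fgf21 (both named after their values were seen) averaged under 1 FPKM in PRF 50 livers and were tested through the HFD livers, so their being lower is in part a condition of the minimum level. G6pc, the last enzyme of glucose production, fell by 2.19 (adjusted limma p of 0.0321), from 6.20, 5.91 and 6.70 in HFD mice to 3.26, 4.76 and 4.23 in PRF 50 mice. Cpt1a, the gate of mitochondrial fatty acid oxidation, rose by 0.60 in HFD vs. ND (adjusted limma p of 0.0483), a call that was lost without any 1 of the 6 mice, with no minimum level and with all 9 mice in 1 fit (adjusted p up to 0.220 over the alternatives). Of 10 clock genes, 1 was lower, beside 11.8% of all genes, Hlf by a log2 fold change of -0.52 (adjusted limma p of 0.0883), and Nr1d1 had its smallest p in HFD vs. ND (-0.76, adjusted limma p of 0.139). In HFD vs. ND, Gyk and Cpt1a were the only genes of these 9 lists with an adjusted p under 0.05, and in PRF 50 vs. ND there was none.

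**Figure D5:**
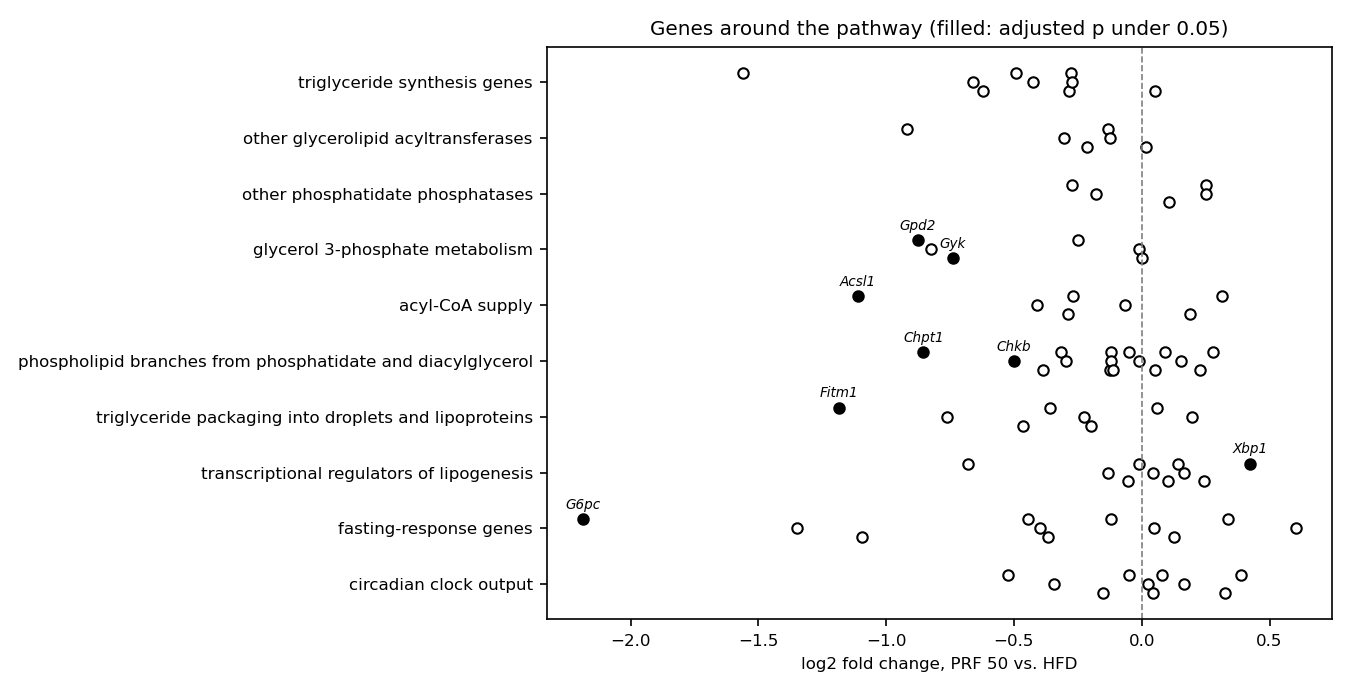
Log2 fold change in PRF 50 vs. HFD (horizontal axis) of the tested genes of each list (vertical axis); each point is 1 gene, and filled points with names have an adjusted limma p under 0.05. The 9 triglyceride synthesis genes are open points between -1.56 and 0.05, and named genes of glycerol 3-phosphate metabolism and acyl-CoA supply lie between -1.11 and -0.74.

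Markers of other cells differed in the same comparison. Of all genes tested in PRF 50 vs. HFD, 11.8% were lower and 8.47% higher at the unadjusted threshold, and 3.59% passed correction. All 9 tested macrophage markers of 10 were higher in PRF 50 than in HFD with an unadjusted p under 0.05, and Adgre1, Cd68, Csf1r, Clec4f, Vsig4, Cd5l and C1qa rose with an adjusted limma p under 0.05, by 0.99 (Cd68) to 1.60 (Adgre1). None of these 7 calls held without HFD mouse 2, without HFD mouse 3 or without PRF 50 mouse 3, and with no minimum level only that of Vsig4 did. In PRF 50 vs. ND all 9 markers were higher at the unadjusted threshold, beside 6.06% of all genes, and 0 past the limma correction, beside 0.458%. In HFD vs. ND none passed either threshold. Of all genes there, 7.82% were higher and 7.26% lower at the unadjusted threshold, and 1.33% passed correction. The summed level of the 10 markers was 553, 303 and 366 FPKM in PRF 50 mice 3, 9 and 10. It was 97.2, 165 and 165 FPKM in HFD mice and 74.8, 140 and 194 FPKM in ND mice. All PRF 50 sums were above all others. Cd5l led the sum in all mice but HFD mice 1 and 2, ND mouse 9 and PRF 50 mouse 3, where Lyz2 was higher. None of the markers was listed at 0. The part of these markers in the lower values of the triglyceride synthesis genes was not tested. The summed level of the 11 hepatocyte markers in the tables, led by Apoa1, was 28174, 28896 and 27724 FPKM in PRF 50 mice, 32771, 26597 and 24900 in HFD mice and 35597, 25732 and 23731 in ND mice, and these groups overlapped. Of the 10 tested in PRF 50 vs. HFD, 1 was lower at the unadjusted threshold (Ttr, -0.62, adjusted limma p of 0.0865) and 1 higher (Fga, 0.66, adjusted limma p of 0.232), with a median of 0.22. In HFD vs. ND, 3 were lower (Cps1 -0.61, Ass1 -1.02 and Hnf4a -0.32, adjusted limma p from 0.191 to 0.310), beside 7.26% of all genes, and none higher. Fga, Ass1 and Hnf4a were named after their values were seen, and their differences were 0.39 without PRF 50 mouse 9, -0.64 without ND mouse 6 and -0.21 without HFD mouse 2. Cps1 had an adjusted limma p of 0.0462 without HFD mouse 1. Alb was listed at 0 in all 9 livers, so a value of 0 was not read as absence.

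The adipocyte markers are given beside Mogat1, and of these Cidec and Pparg are also known in fatty liver. In PRF 50 vs. HFD, 3 of the 4 tested were lower at the unadjusted threshold, beside 11.8% of all genes. Cidec and Pparg were lower past correction, which 3.59% of all genes passed in either direction. Cidec and Cfd averaged under 1 FPKM in PRF 50 livers and were tested through the HFD livers, so their being lower is in part a condition of their being counted. Of its 9 genes, Lep and Plin1 were listed at 0 in all 9 mice and Adipoq in all but HFD mice 2 and 3 (0.35 and 0.14 on the log2 scale). Fabp4 led the sum in all mice but HFD mouse 1, where Pparg was higher (9.93 against 7.06 FPKM). The summed level was 21.0, 57.7 and 63.3 FPKM in HFD mice 1, 2 and 3. It lay between 26.7 and 34.1 FPKM in ND mice and between 16.5 and 25.0 FPKM in PRF 50 mice. It was thus high in the same 2 HFD mice as Mogat1, with Cfd, a secreted adipocyte protease named after its values were seen, at 2.86 and 3.85 there and at 0.66 in HFD mouse 1. Their part in the Mogat1 values was not tested.

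Of 7 endothelial markers tested, 1 was higher in PRF 50 vs. HFD at the unadjusted threshold (Cdh5, 0.82, adjusted limma p of 0.179), beside 8.47% of all genes. In HFD vs. ND, 1 was lower (Kdr, -0.84, adjusted limma p of 0.270), beside 7.26% of all genes. Without HFD mouse 1 these differences were 0.48 and -0.54. Of 8 stellate cell markers, 3 had a lower and 5 a higher mean in PRF 50 vs. HFD (median log2 fold change of 0.12). At the unadjusted threshold 2 were lower, beside 11.8% of all genes, Col1a1 (-0.46) and Col3a1 (-0.43), with adjusted limma p of 0.162 and 0.180. Col1a1 was under 1 FPKM in each PRF 50 mouse and was tested through the HFD livers. Its being lower is thus in part a condition of its being tested. Col1a1 and Col3a1 were higher in HFD vs. ND (0.77 and 0.87, adjusted limma p of 0.0798 and 0.101), where Col1a1 averaged at least 1 FPKM in the HFD group only. The adjusted p was 0.0462 for Col1a1 without HFD mouse 1 and 0.0374 for Col3a1 without ND mouse 9 in the limma fit of HFD vs. ND. The summed stellate level, led by Dcn, lay between 63.0 and 134 FPKM with overlapping groups. The cholangiocyte sum, led by Spp1, lay between 25.6 and 41.5 FPKM, and Spp1 was higher in PRF 50 vs. ND (0.45, adjusted limma p of 0.191), while Sox9 was tested only there (-0.13, and 0.00223 without PRF 50 mouse 10). The pancreatic acinar sum was almost wholly Cela1, between 15.0 and 44.2 FPKM, and 3 of the 7 acinar genes were listed at 0 in all mice. Cela1 was higher in PRF 50 vs. ND at the unadjusted threshold (0.67, adjusted limma p of 0.314), by 0.44 without PRF 50 mouse 10.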

How the data were processed

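Liver RNA-Seq values of 9 mice, 3 per group, were analysed, grouped by the sample titles. The authors trimmed the reads (FASTX_Trimmer, BBMap) and mapped them with TopHat to mm10 per the submitters' processing notes (tool versions not given in the sources used here), then made FPKM values in Cufflinks, which they brought to a common scale by a geometric method stated as EdgeR. The deposited values are log2 values, taken as log2(FPKM + 1), where the 1 is inferred from a lowest value of 0. Counts of reads were not used here, and relative depth came from the ratio seen most often among low values (under 0.3 FPKM) of 2 mice. The members of the pathway and the gene lists were chosen with earlier results of these data known.

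For each comparison R 4.3.3 and limma 3.58.1 were used (lmFit, then eBayes with its trend option) on the 6 mice, limited to genes that averaged 1 FPKM or more in them, and p-values were adjusted by Benjamini-Hochberg over all genes tested. SE and 95% intervals are from this fit. Isoform shares were tested by exact permutation, two-sided. The fit was tested on simulated data. The 3 libraries per group come from separate mice, and 0% of values above 0 were identical between any pair of libraries.

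The genes named are the 10 members, listed genes with an adjusted p under 0.05 in any comparison or else the 2 with the smallest p, and the 3 genes nearest in pattern to the member with the smallest p. Genes that lead the sum of a list or are listed at 0 are also named, and others are marked where they appear. Gene positions are from GENCODE M21 on GRCm38, the assembly of mm10. Promoter sequences are from RefSeq on GRCm38.p6, and the motifs were picked after the sequences of the members had been seen. As alternatives, each mouse was left out, the 9 mice were fitted together, the pseudocount was set to 0.1, the minimum was dropped or raised to 10 FPKM, values were quantile normalized or rescaled by median of ratios, and the eBayes trend was dropped. Running these on genes of the other lists printed with a log2 fold change, or only leaving out mice where these passed no correction, was chosen after seeing the data.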

Additional observations from a re-analysis of the deposited data

How the results depend on the processing

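Across 332 alternative values of the members' log2 fold changes, 321 kept their direction and 317 also their side of an adjusted p of 0.05. The 4 that passed it were Agpat2 (-0.62 with all 9 mice in 1 fit, -0.79 without HFD mouse 1) in PRF 50 vs. HFD, and Mogat1 without HFD mouse 1, at -2.18 in that comparison and 2.09 against ND. The 11 reversed values belonged to differences that passed no threshold. Dgat2 in PRF 50 vs. ND was 0.00102 after quantile normalization. Without 1 mouse, ranges that crossed 0 were -0.0502 to 0.148 for Agpat1 and -0.90 to 0.17 for Lpin1 in PRF 50 vs. HFD, -0.918 to 0.00331 for Lpin1 and -0.193 to 0.0731 for Lpin2 in HFD vs. ND, and -0.33 to 0.63 for Gpam and -0.194 to 0.0351 for Dgat2 in PRF 50 vs. ND. The cause was not tested. For named genes of the other lists (17, 2 and 1 calls in the 3 comparisons), alternatives chosen after seeing the data turned no direction; an adjusted p under 0.05 was kept in 124 of 216 in PRF 50 vs. HFD (30 of 102 without 1 mouse), 14 of 26 in HFD vs. ND and 6 of 12 in PRF 50 vs. ND. Among genes outside the members printed with a log2 fold change that passed no correction, each mouse was left out in turn, also chosen after seeing the data. Sox9 in PRF 50 vs. ND has 4 such values and Col1a1 in HFD vs. ND has 5, where the others have 6. Agpat6, Pdk4, Fgf21 and Cfd were not run in this way. The sign turned for Srebf1 in PRF 50 vs. HFD (-0.482 without PRF 50 mouse 3, 0.0868 without PRF 50 mouse 9) and for Sox9 in PRF 50 vs. ND (0.00223 without PRF 50 mouse 10).

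The count of members with an adjusted p under 0.05 in PRF 50 vs. HFD was 0, and 1 with all 9 mice in 1 fit, and ranged from 0 to 2 without 1 mouse; in HFD vs. ND it ranged from 0 to 1. At an unadjusted p under 0.05, the count ranged from 3 to 5 without 1 mouse in PRF 50 vs. HFD (6 with all), from 1 to 4 in HFD vs. ND (3) and from 2 to 3 in PRF 50 vs. ND (2). The count over all genes at an adjusted p under 0.05 was 362 in PRF 50 vs. HFD, 126 with no minimum level and 15 to 242 without 1 mouse, 133 in HFD vs. ND, 37 and 35 to 140, and 46 in PRF 50 vs. ND, 11 and 4 to 71, and 102 there with all 9 mice in 1 fit. With no minimum more genes are tested, and with 1 mouse left out a group has 2 mice. The Agpat2 share in PRF 50 vs. ND moved from -4.44 to -3.42 percentage points after quantile normalization. Without 1 mouse the Lpin1 share ran from -6.87 to 7.37 in PRF 50 vs. HFD and from -11.2 to 1.44 in PRF 50 vs. ND, and the Dgat2 share from -0.374 to 0.334 in PRF 50 vs. HFD.

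No minimum level let Mogat1 and Pnpla3 be fitted where they were otherwise not tested, with log2 fold changes from -0.20 to -0.08 and limma p between 0.266 and 0.664. A minimum of 10 FPKM left 6 members tested in PRF 50 vs. HFD and 7 in each of the other comparisons, so the rest have no value there. No paired analysis was possible because the groups hold separate mice and a number links no mice across groups. With 3 mice per group and unknown absolute depth, a p that misses the threshold does not show that levels were equal.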
